A study of Mus musculus with 6 samples.

Results

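The chemokine receptors examined here were Ccrl2, Ccr1, Ccr2, Ccr3, Ccr7, Cxcr2, Cxcr4, Cx3cr1 and Ackr3, a set of receptors studied in microglia. Each was taken from the deposited log2 expression table as the transcript cluster (a group of probes for 1 transcription unit, called a row below) annotated to that gene alone. All 9 were found, with 1 row each, among 22180 genes that had such a row and 41345 rows in all. RNA came from BV-2 cells, a mouse microglial line transformed by the raf and myc oncogenes of a retrovirus, so all samples share 1 line. The 3 control arrays were labelled resting cells, and the 3 LPS arrays held cells given lipopolysaccharide of Escherichia coli O111:B4 at 1 µg/mL for 24 h. The sources used give no harvest time for the control cells. Both groups were plated in medium with 2.5% serum. No label says that replicates were separate cultures, and the p-values below reflect array-to-array spread, part of which may be technical.

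Chemokines are small secreted proteins that guide leukocytes, and their receptors are G protein-coupled receptors of the cell surface. Typical receptors (Ccr, Cxcr and Cx3cr names) signal through inhibitory G proteins and turn the cell towards the ligand. Atypical receptors such as Ackr3 and Ccrl2 bind a ligand without that signal and clear it, pass it on or present it to other cells. In the brain, Cx3cr1 on microglia receives fractalkine (Cx3cl1) from neurons, and Ccr2 is known as a receptor of monocytes that enter from the blood. Lipopolysaccharide is sensed through Toll-like receptor 4, which activates NF-kappaB.

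The table gives no detection call, so 1438 rows of chemosensory receptors (olfactory, vomeronasal and taste) served as a guide to background. The 95th percentile of their means over the 6 arrays was 3.09 (log2), called the guide level below. The probes of a row set its level too, so the place of a row against the guide level or another row is only a rough reading. Array medians ran from 2.88 to 2.97. Of 15 macrophage and microglia markers with a row, 12 had a mean above the guide level, and those at or below it were the microglial genes Tmem119, Siglech and Sall1. Marker means per array ran from 6.83 to 7.07 in the controls and from 6.77 to 7.34 after LPS. Of 11 neuron, astrocyte and oligodendrocyte markers 1 lay above the guide level, Rbfox3, and of 12 lymphocyte, neutrophil and endothelial markers also 1, the vascular growth factor receptor Kdr, at 8.99 ± 0.23 in controls (SD, n = 3). The response genes Tnf, Il1b, Il6, Nfkbia and Acod1 were all called higher after LPS, with log2 fold changes from 2.57 to 6.60. Control replicate 2 and LPS replicate 3 stood somewhat apart. In rows with a mean from 4 to 6, control replicate 2 lay a median of 0.19 below the other controls and LPS replicate 3 a median of 0.22 above the other LPS arrays. In rows from 6 to 8 these shifts were -0.51 and 0.08.

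LPS raised 1 of the 9 receptors, Ccrl2, and did so by a large factor. None was called lower, and 8 did not pass the test. A row was called at adjusted p under 0.05 in limma, Benjamini-Hochberg adjusted over all 41345 rows, where 80 rows, or 0.193%, were called higher and 0, or 0%, lower. At an unadjusted p under 0.05, limma had 1 receptor higher and 2 lower (Cxcr2 and Cxcr4), against 4.98% and 1.4% of all rows. The log2 fold change was below 0 for 8 of 9 receptors and for 44.2% of all rows. It was below 0 for 51.0% of the chemosensory receptor rows and for 9 of 16 other chemokine and chemerin receptors. Of the 9 receptors, 4 had a mean at or below the guide level. For Ccr2, Ccr3 and Ccr7 the sign changed under some processing settings. The median log2 fold change was -0.22 over the receptors and 0.03 over all rows. In RNA from whole cultures, fewer cells that use a gene and less of its RNA per cell cannot be told apart.

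**Figure D1:**
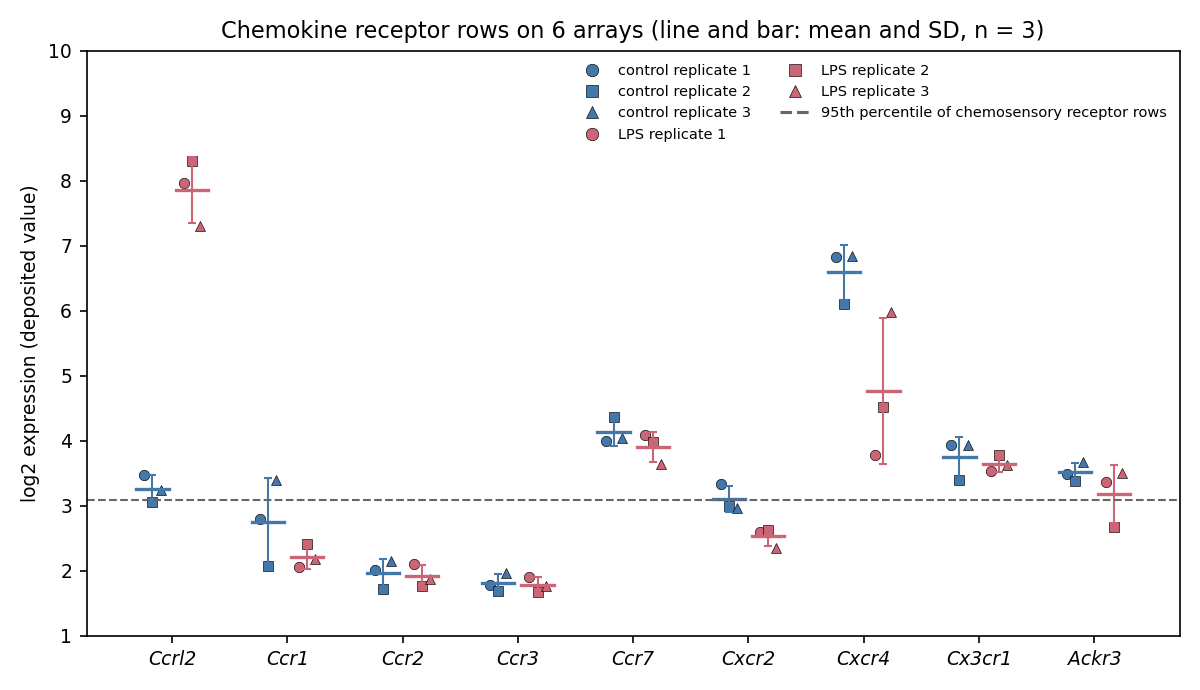
Log2 expression of each receptor row (vertical axis) on every array, with controls in blue and LPS in red; symbols mark the replicate number, lines and bars the mean and SD of 3 arrays, and the dashed line the guide level of 3.09. Ccrl2 lies between 3.06 and 3.48 in controls and between 7.30 and 8.30 after LPS, and Cxcr4 spans 3.78 to 5.99 after LPS against 6.11 to 6.85 in controls.

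Ccrl2 (transcript cluster 17531705), an atypical receptor that binds chemerin and presents it to cells with the chemerin receptor Cmklr1, was the receptor that responded. Its log2 expression was 3.48, 3.06 and 3.25 in control replicates 1 to 3 and 7.96, 8.30 and 7.30 in LPS replicates 1 to 3. Every LPS array thus lay far above every control, and 7.74% of all rows were separated in this way. Group means were 3.26 ± 0.21 and 7.85 ± 0.51 (SD, n = 3). The log2 fold change of 4.59 (SE 0.27, 95% interval 3.94 to 5.24), or 24.1-fold, passed the test (limma adjusted p = 0.0038). It was the 11th largest rise of all 41345 rows. The control signal was close to the guide level, with control replicate 2 under it, so the size of the fold rests on a dim control signal. Leaving out single arrays gave between 4.37 and 4.87, all called.

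RefSeq (GRCm38.p6) places Ccrl2 on chromosome 9, on the minus strand. It lies apart from the group of Xcr1, Ccr1, Ccr1l1, Ccr3 and Ccr2, which follow one another on the same chromosome. The sequence below shows where the promoter of the receptor that rose holds a match to the kappaB motif, the letters NF-kappaB is known to bind. It covers the 250 bases before the most upstream of 3 start sites in the RefSeq promoter table, chr9:111057519-111057768, minus strand, 5′ to 3′, with the match in capitals.
Ccrl2 promoter: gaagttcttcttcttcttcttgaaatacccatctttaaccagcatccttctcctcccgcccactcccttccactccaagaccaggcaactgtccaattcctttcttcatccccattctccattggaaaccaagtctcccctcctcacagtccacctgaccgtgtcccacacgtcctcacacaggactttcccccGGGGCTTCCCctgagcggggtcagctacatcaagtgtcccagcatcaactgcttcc
The match lies at positions -56 to -47 from that start and reads as the motif on both strands. Searched on both strands, the kappaB motif occurs in 7.25% of the 32851 windows of the same length in the table. Windows before the other 2 Ccrl2 starts held none. The AP-1 motif TGANTCA (6.75% of windows) and the TATA letters TATAAA (12.4%) had no match in any of the 3. Among the other receptors, Ccr1 and Ccr3 each had 1 kappaB match in their window, and neither was called after LPS. The Ccr3 window also had 1 AP-1 match. A match shows only that these letters are present, and Ccr7 was not searched.

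No coding neighbour of Ccrl2 was called. The nearest 3 with a row on one side were the lactoferrin gene Ltf, Rtp3 and Lrrc2, with log2 fold changes of 0.15, -0.49 and 0.13. On the other side Lrrfip2, Epm2aip1 and Trank1 had 0.78, -0.22 and -0.06. Lrrfip2, known to bind the Toll-like receptor adaptor Myd88, went from 6.61 ± 0.39 to 7.38 ± 0.20 (SD, n = 3).

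Cxcr4 (transcript cluster 17226593), the receptor of Cxcl12 that holds cells in the bone marrow and guides their migration, had the lowest log2 fold change of the 9. Its log2 expression was 6.83, 6.11 and 6.85 in control replicates 1 to 3 and 3.78, 4.53 and 5.99 in LPS replicates 1 to 3. All LPS values lay below all control values, as in 3.48% of all rows, but LPS replicate 3 came close to control replicate 2. Group means were 6.59 ± 0.42 and 4.77 ± 1.12 (SD, n = 3). The log2 fold change was -1.83 (SE 0.55, 95% interval -3.13 to -0.53), or 3.55-fold lower, and did not pass (limma adjusted p = 0.52). It was the 6th lowest of 22180 genes. Whether it passed changed with the arrays that stood apart. LPS replicate 3 lay 1.83 above the other LPS arrays and control replicate 2 lay 0.73 below the other controls. Without LPS replicate 3 the log2 fold change was -2.44 (limma adjusted p = 0.095), without control replicate 2 it was -2.07 (limma adjusted p = 0.37), and without LPS replicate 1 it was -1.34. Without both LPS replicate 3 and control replicate 2 it was -2.68 and called (limma adjusted p = 0.030). These 2 arrays were picked because they stood apart in these same data. They hold the highest LPS value and the lowest control value of Cxcr4, so leaving them out had to widen the difference. Adjusted p over all alternatives ran from 0.030 to 1.00.

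The Cxcr4 promoter is shown beside that of Ccrl2 because the motif matches differed. It is chr1:128592300-128592549, minus strand, GRCm38.p6, 5′ to 3′, with overlapping matches to TATAAA on either strand in capitals (positions -32 to -25).
Cxcr4 promoter: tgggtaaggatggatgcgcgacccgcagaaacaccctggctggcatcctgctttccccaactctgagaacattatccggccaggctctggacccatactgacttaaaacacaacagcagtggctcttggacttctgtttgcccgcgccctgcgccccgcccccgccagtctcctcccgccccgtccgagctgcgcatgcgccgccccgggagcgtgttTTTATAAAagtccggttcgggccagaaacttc
No kappaB or AP-1 match was found in this window, nor in those of Ccr2, Cxcr2, Cx3cr1 and Ackr3.

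**Figure D2:**
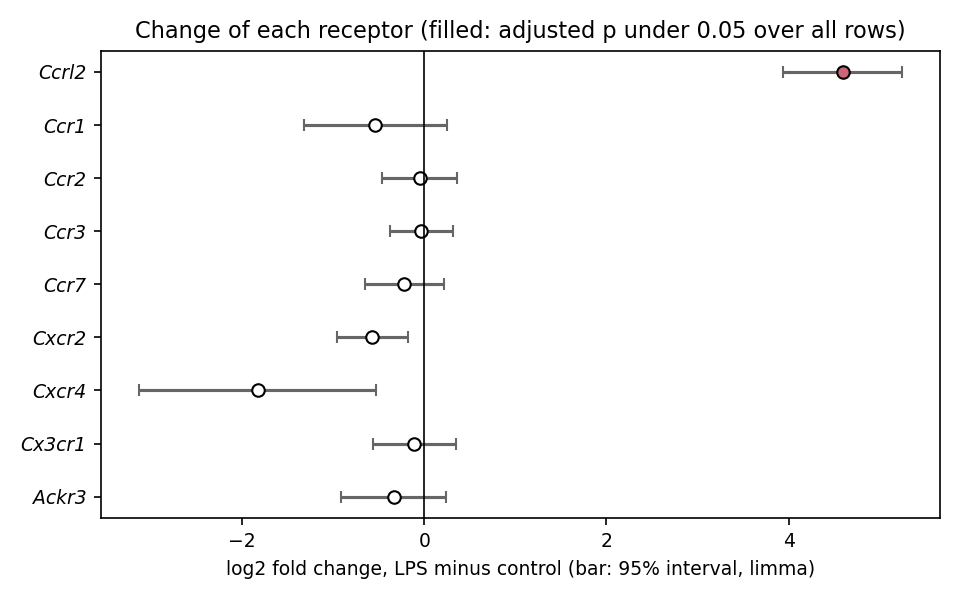
Log2 fold change (LPS minus control, horizontal axis) of each receptor with its 95% interval from limma; filled points passed adjusted p 0.05 over all rows. Ccrl2 stands alone at 4.59, while the interval of Cxcr4 is the widest, from -3.13 to -0.53.

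Ackr3 (transcript cluster 17215605), the atypical receptor that takes up Cxcl12 and Cxcl11, was weakly above the guide level on 5 of 6 arrays. It had 3.48, 3.38 and 3.67 in the controls and 3.36, 2.67 and 3.50 after LPS, so the groups overlapped and LPS replicate 2 was the low array. The log2 fold change was -0.34 (SE 0.24, 95% interval -0.91 to 0.24, limma adjusted p = 0.98), and -0.08 without LPS replicate 2. Its promoter window had 1 match to TATAAA and none to the other motifs.

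Cxcr2 (transcript cluster 17214142), the receptor of neutrophil attractants such as Cxcl2, had 3.33, 3.00 and 2.97 in control replicates 1 to 3 and 2.60, 2.63 and 2.36 after LPS. The groups did not overlap, yet only control replicate 1 exceeded the guide level, so the difference was one between dim signals. Its log2 fold change was -0.57 (SE 0.16, 95% interval -0.96 to -0.18) and did not pass (limma adjusted p = 0.50). Cxcr2 and Cxcr4 were the 2 of 9 receptors whose LPS values lay wholly below the controls, against 3.48% of all rows.

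The CC receptors encoded next to each other on chromosome 9 gave little signal. Ccr1, a receptor of Ccl3 and Ccl5, had 2.79, 2.07 and 3.40 in the controls and 2.05, 2.42 and 2.18 after LPS (log2 fold change -0.54, 95% interval -1.33 to 0.25, limma adjusted p = 0.94). Control replicate 3 alone was above the guide level, and the value of Ccr1 was -0.22 without that array and -0.88 without control replicate 2, the lowest control. Ccr2, the receptor of Ccl2, was at 1.96 ± 0.22 in controls and 1.91 ± 0.17 after LPS (SD, n = 3), within 1.72 to 2.15 on all arrays. For Ccr3, the eotaxin receptor of eosinophils, the means were 1.81 ± 0.14 and 1.78 ± 0.12 (SD, n = 3). Both stayed under the guide level on every array. Their log2 fold changes of -0.05 (95% interval -0.46 to 0.36) and -0.03 (95% interval -0.38 to 0.32) bound any difference in these signals, which at this level says little about the RNA.

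Ccr7 and Cx3cr1 were, with Cxcr4, the 3 receptors above the guide level on every array. Ccr7 (transcript cluster 17268972), the receptor of Ccl19 and Ccl21 that brings dendritic cells to lymph nodes, had 3.99, 4.36 and 4.03 in the controls and 4.09, 3.99 and 3.65 after LPS. The groups overlapped, with a log2 fold change of -0.22 (SE 0.18, 95% interval -0.65 to 0.22, limma adjusted p = 0.99). It was -0.09 without LPS replicate 3 and -0.10 without control replicate 2. Cx3cr1 (transcript cluster 17532268) had 3.94, 3.40 and 3.93 in the controls and 3.53, 3.77 and 3.62 after LPS. Control replicate 2 was the lowest of all 6 arrays, and the LPS arrays lay between it and the other controls. The log2 fold change of Cx3cr1 was -0.11 (SE 0.19, 95% interval -0.56 to 0.34, limma adjusted p = 1.00), and ran from -0.29 without control replicate 2 to -0.02 without control replicate 1.

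A list of 16 other chemokine receptors and chemerin receptors stayed low, and 14 of these had a mean at or below the guide level. In limma 0 were called, where 0.193% of all rows were. At an unadjusted p under 0.05, limma had 0 higher and 0 lower, against 4.98% and 1.4% of all rows. Log2 fold changes of the 16 receptors ran from -0.28 to 0.29 with a median of -0.05. With none called, the 3 rows of highest signal are given, those of the scavenging receptor Ackr2, the receptor of interferon-induced chemokines Cxcr3 and the dendritic cell receptor Xcr1, with log2 fold changes of -0.08, -0.09 and 0.09. Cmklr1, through which chemerin signals, was at 3.01 in controls and 2.85 after LPS (limma adjusted p = 1.00). None of the 24 other chemokine and chemerin receptors measured was called, which says little where 0.193% of all rows were called.

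Ligands of the 9 receptors included 3 that LPS raised, the leukocyte attractants Ccl5, Cxcl2 and Ccl2. Of 23 ligands 20 had a row of their own, and 3 of these were called higher and 0 lower, where 0.193% and 0% of all rows were. At an unadjusted p under 0.05, limma had 8 ligands higher and 3 lower, against 4.98% and 1.4% of all rows. The median log2 fold change was 0.08, and 0.03 over all rows. Ccl5, which binds Ccr1 and Ccr3, had 6.23, 4.12 and 5.60 in the controls and 10.28, 10.45 and 11.44 after LPS, and rose by 5.41 (SE 0.57, limma adjusted p = 0.032). Cxcl2, a ligand of Cxcr2, had 2.75, 2.33 and 3.17 in the controls and 7.56, 7.78 and 7.78 after LPS, and rose by 4.96 (SE 0.23, limma adjusted p = 0.0012). Ccl2, the ligand of Ccr2, had 7.06, 6.75 and 6.88 in the controls and 8.63, 8.86 and 8.23 after LPS, and rose by 1.68 (SE 0.20, limma adjusted p = 0.044). The receptors that these ligands are known to bind, Ccr1, Ccr3, Cxcr2 and Ccr2, were not called and were at or below the guide level on most or all arrays. Cxcl2 was called under each of 15 alternatives, Ccl5 under 9 and Ccl2 under 6. With the replicate block Ccl5 and Ccl2 missed the threshold (limma adjusted p = 0.17 and 0.28). Ccl5 also missed it without any single array other than control replicate 2 (limma adjusted p from 0.071 to 0.20). Ccl2 also missed it after quantile normalization (limma adjusted p = 0.095), median centring (0.053) or an intensity trend (0.076), and without any single array other than LPS replicate 3 (0.089 to 0.24).

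Other ligands, singled out after their values were seen, had log2 fold changes in both directions, and none was called. The macrophage chemokines Ccl9 and Ccl4 had log2 fold changes of 1.48 and 1.45 (limma adjusted p = 0.50 and 0.16), and Ccl4 was called after quantile normalization (1.27, limma adjusted p = 0.045). Ccl12, a mouse ligand of Ccr2, had one of 0.87 (limma adjusted p = 0.24), from a control signal under the guide level. For all 3 of these genes every LPS array lay above every control, as in 7.74% of all rows. Ccl3, another Ccr1 ligand, was at 11.13 ± 0.03 in controls and 11.64 ± 0.09 after LPS (SD, n = 3; limma adjusted p = 0.40). Ccl6 had a log2 fold change of -1.03 and the eosinophil attractant Ccl24 one of -0.75, with limma adjusted p = 0.58 and 0.46. Cxcl12, the ligand of Cxcr4 and Ackr3, was under the guide level on every array, with 2.46 in controls and 2.48 after LPS. Fractalkine, Cx3cl1, was likewise at 2.32 and 2.35. The ligand of Ccrl2, chemerin (Rarres2), and the Ccr7 ligands Ccl19 and Ccl21a had no row naming them alone.

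**Figure D3:**
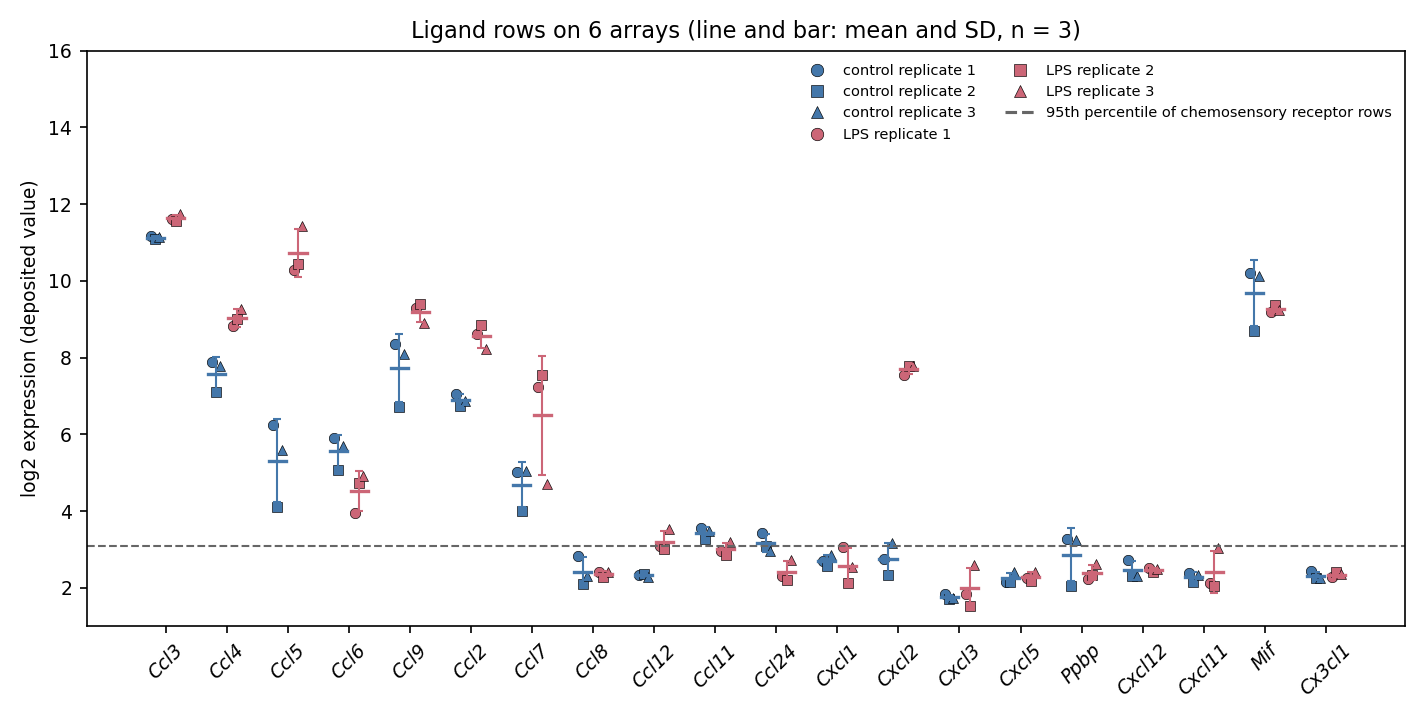
Log2 expression of 20 ligands of the receptors on every array (vertical axis), with controls in blue and LPS in red, replicate symbols, and lines and bars for the mean and SD of 3 arrays; the dashed line is the guide level. Ccl5, Cxcl2 and Ccl2 passed the test, and Cxcl12 and Cx3cl1 lie under the guide level in both groups.

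Genes that carry or end the receptor signal were mostly well above the guide level. Of 26 listed, 24 had a row, 21 with a mean above it. In limma 0 were called, where 0.193% of all rows were called higher and 0% lower. At an unadjusted p under 0.05, limma had 3 higher and 1 lower, against 4.98% and 1.4% of all rows. Log2 fold changes of the 24 genes ran from -1.27 to 0.90, with a median of 0.08. With none called, the rows of highest signal are given, those of the small GTPase Rac2, from 9.76 ± 0.67 to 10.39 ± 0.09, and of the G protein subunit Gnb1, from 9.62 ± 0.31 to 9.73 ± 0.12 (SD, n = 3). The 3 higher at an unadjusted p, named with Rgs2 after their values were seen, were the phosphoinositide kinase subunit Pik3r5 (log2 fold change 0.90), the Rac activator Prex1 (0.70) and the receptor kinase Grk5 (0.61), with limma adjusted p from 0.58 to 0.71. Rgs2, an inhibitor of G protein signalling, had 9.30, 7.91 and 9.36 in the controls and 7.40, 7.66 and 7.69 after LPS. Control replicate 2 was close to the LPS arrays. Its log2 fold change was -1.27 (limma adjusted p = 0.54), and without control replicate 2 it was -1.75 and called (limma adjusted p = 0.034).

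Genes whose pattern over the 6 arrays was most like that of a receptor were sought by the root mean square difference between log2 values, each gene centred on its own mean, over 22179 other genes. Nearest to Ccrl2 was the scavenger receptor gene Marco, at 0.23, followed by the cytokine Il6 at 0.39 and Cxcl2 at 0.43, where the median over all genes was 2.31. Marco had 3.29, 3.13 and 3.34 in the controls and 7.53, 7.76 and 7.09 after LPS. As for Ccrl2, LPS replicate 2 was the highest and LPS replicate 3 the lowest LPS array. Il6 and Cxcl2 did not share this order, since LPS replicate 1 was their lowest LPS array, at 6.69 and 7.56. Nearest to Cxcr4 were Gpr183, a receptor for oxysterols that guides immune cells (0.23), the proton pump subunit Atp6v0d2 (0.28) and the histone deacetylase Hdac9 (0.30), against a median of 1.16. Gpr183 had 7.36, 6.61 and 7.34 in the controls and 4.50, 4.52 and 6.29 after LPS, and LPS replicate 3 was the highest LPS array for all 3 of these genes. None of the 3 was called (limma adjusted p from 0.40 to 0.82). For Cxcr2 the nearest were Gm10787, A330102I10Rik and Mir26a-1, at 0.086 to 0.099 against a median of 0.39, all with control means under the guide level. Likeness over 6 arrays of 2 groups is a description, since any genes that differ between the groups share that difference.

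**Figure D4:**
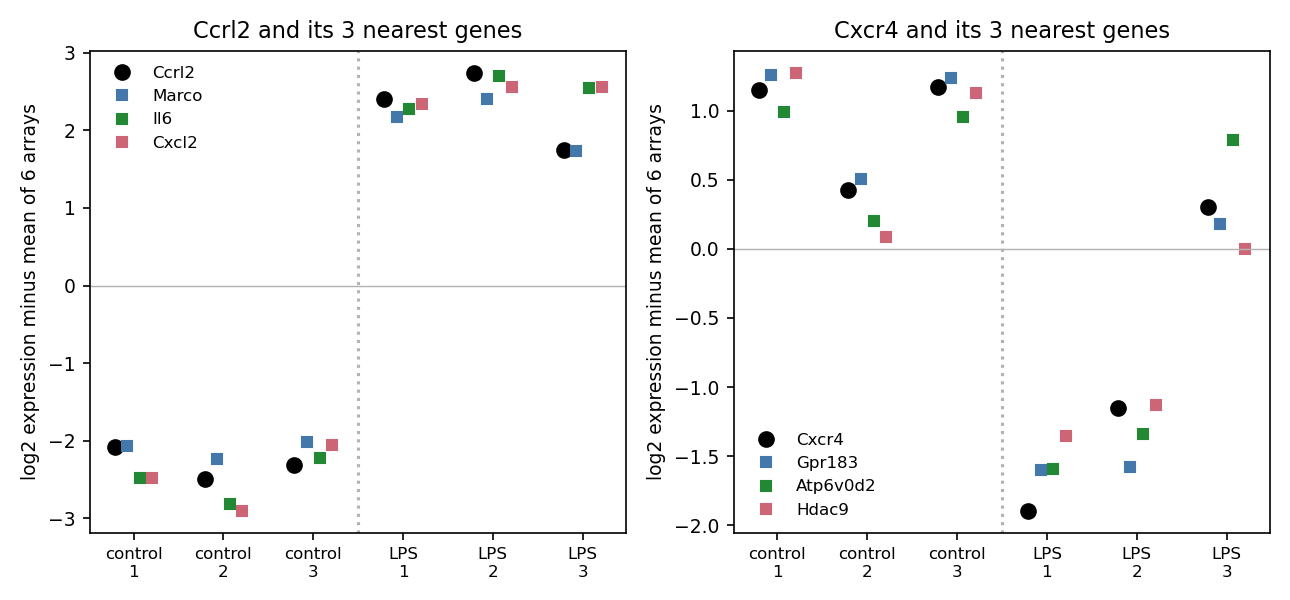
Log2 expression minus each gene's mean over the 6 arrays (vertical axis) for Ccrl2 (left) and Cxcr4 (right) in black and the 3 genes nearest to each in colour, by array. Marco, Il6 and Cxcl2 rise with Ccrl2 in all LPS arrays, while LPS replicate 3 of Cxcr4, Gpr183, Atp6v0d2 and Hdac9 lies above the other LPS replicates.

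The calls of the 2 receptors with the largest log2 fold changes in size were set beside each other under all processing choices. Ccrl2 was called under 14 of 15 alternatives, and the exception was a fit with the replicate number as a block (limma adjusted p = 0.076). Cxcr4 kept a log2 fold change below 0 in all 15 and was called in 1.

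**Figure D5:**
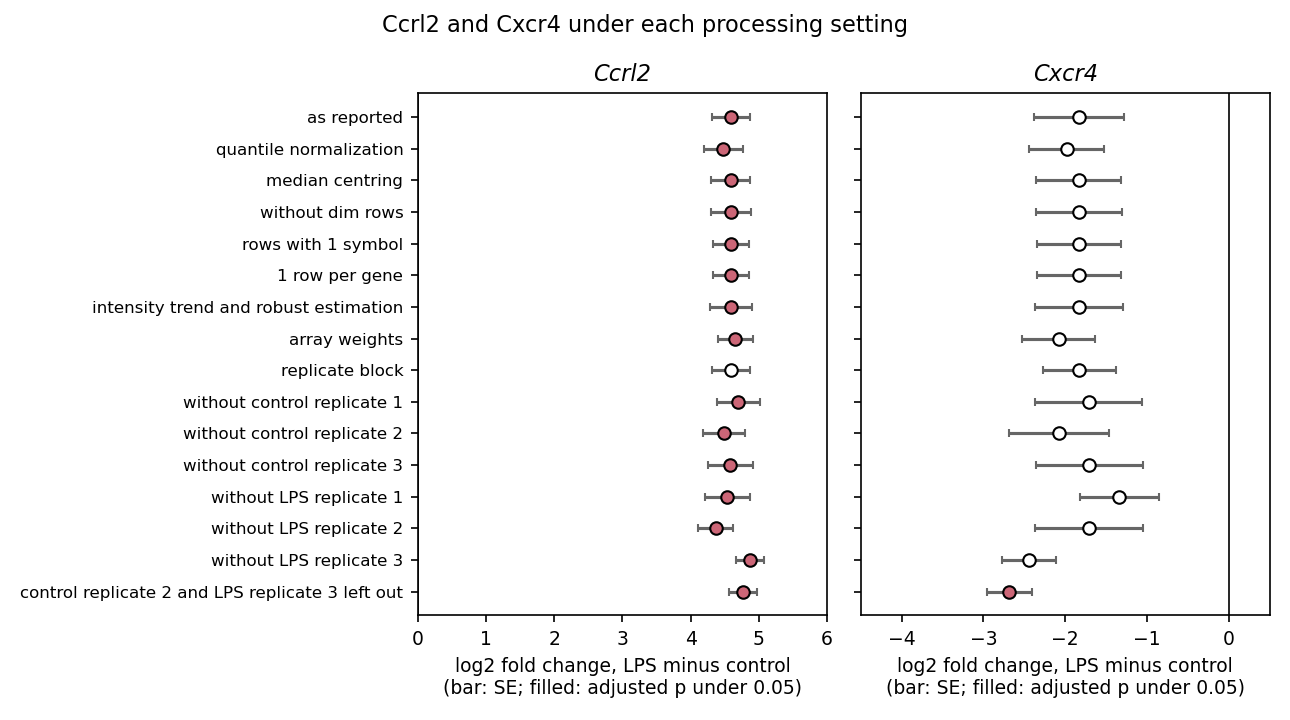
Log2 fold change (horizontal axis, LPS minus control) of Ccrl2 and Cxcr4 as reported and under each of 15 alternative settings, with bars for the SE and filled points for adjusted p under 0.05. Ccrl2 stays between 4.37 and 4.87, and Cxcr4 moves between -2.68 and -1.34.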

How the data were processed

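The authors deposited log2 expression values per transcript cluster from 6 whole-transcript Affymetrix arrays, and the submitters' processing notes name Affymetrix Expression Console. Its version, background correction, normalization and summarization are not given in the sources used here, and the log base was taken from the range of the values (0.84 to 12.0). Biotin-labelled cDNA was made from TRIzol-isolated total RNA, per the labels' protocols. Rows were named from platform annotation (1 symbol for 23521 rows, several for 1814, none for 16010), of which 23328 matched RefSeq by gene identifier. For a gene with several rows the row with the highest mean was used.

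LPS was compared with control by limma 3.58.1 in R 4.3.3 (lmFit, eBayes) on all rows, with no filter, and tested on simulated data. Intervals are at 95%. The number of arrays limits the precision. Named genes were all 9 receptors, in each list called members or else those with the highest mean, the 3 genes nearest each receptor at unadjusted p under 0.05, the neighbours of Ccrl2 and 5 response genes. Further ligands, Cmklr1 and signalling genes were named after their values were seen. Receptors and lists were chosen with earlier results of these data known. Alternatives covered normalization, centring, rows tested, variance model, array weights, a replicate block and left-out arrays.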

Additional observations from a re-analysis of the deposited data

How the results depend on the processing

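The number of rows called higher, 80, was 132 with array weights, 7 with the replicate block, 152 in the fit that dropped both control replicate 2 and LPS replicate 3, and 15 to 76 with single arrays left out. The number called lower, 0, was 67 without both and 0 to 14 with single arrays left out (14 without control replicate 2, 6 without LPS replicate 3). With the replicate block 0 receptors were called higher, and with both arrays left out 1 was called lower, Cxcr4. Those 2 arrays were picked because they stood apart in these same data. Control and LPS arrays of the same number had deviations from their group means with r of 0.07, -0.26 and -0.22. With 3 arrays per group, these values cannot decide whether arrays of the same number shared a culture or batch. The block also leaves fewer degrees of freedom. No control array correlated best with the LPS array of its own number. Of the LPS arrays only replicate 1 correlated best with its own number, at an r of 0.07. Log2 fold changes near 0 turned above 0 for Ccr2 (0.042 without control replicate 3 and 0.020 without LPS replicate 2, in a range from -0.17 over single arrays left out), Ccr3 (0.045 and 0.022 without these arrays, in a range from -0.094) and Ccr7 (0.027 with both arrays left out), none called. Removing dim rows also removed Ccr1, Ccr2, Ccr3 and Cxcr2 from the test. No receptor had another row to try. The lack of a detection call limits what can be said of rows near the guide level.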

Other observations

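LPS replicate 3 also departed from the other LPS arrays for a monocyte attractant that shares Ccr2 with Ccl2. Ccl7 had 5.01, 4.01 and 5.04 in the controls and 7.23, 7.55 and 4.71 after LPS, so that LPS replicate 3 lay among the controls (log2 fold change 1.81, limma adjusted p = 0.77). Without that array it was 2.71 (limma adjusted p = 0.086), and without control replicate 2 as well it was 2.37 and called (limma adjusted p = 0.015). For Ccl5 that array was the highest of the 3 LPS arrays, at 11.44. These genes were singled out after their values were seen.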
